A study of Mus musculus with 10 samples.

Results

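To describe how a chemokine and the receptors that read it were expressed in fibroblasts and tumor cells grown together, 3 genes were followed through all 10 libraries of this experiment: Cxcl12, the ligand, and Cxcr4 and Ackr3, its receptors. They were chosen by gene symbol among the 55486 genes of the count table. CD26- and CD26+ normal fibroblasts (NFs) came from the mammary glands of mTmG mice aged 8 weeks, whose cells are red (Tomato) until Cre recombinase turns them green (GFP). CD26+ NFs had received adeno-Cre, an adenovirus that carries Cre, and CD26- NFs had not, so that the subset and exposure to the virus cannot be told apart. Both subsets were mixed in equal parts in collagen/BME gels (BME, basement membrane extract), without tumor cells (gel 1) or with tumor cells of line 13-MCB-17 (gel 4) or 10-SJK-221 (gel 5), and these lines were also grown without NFs (gels 2 and 3). After 7 days the cells were sorted by color into Tomato+ NFs, GFP+ NFs and colorless tumor cells.

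Several properties of the groups limit them as models. The tumor lines were derived from the WEPtn mouse model of invasive lobular carcinoma, where WapCre, active in mammary epithelium, deletes floxed alleles that include Cdh1. Each line stands for its own tumor and was present in 1 gel alone and 1 gel with NFs. NFs of several mice had been pooled for sorting, according to the study's methods, and CD26 itself was read before a week of culture on plastic. NFs alone came from 1 gel, so every comparison of co-cultured NFs with NFs alone set 2 gels against 1 and cannot separate the presence of tumor cells from a peculiarity of that gel. Nothing in the labels says that the gels came from separate NF isolations. P-values measure spread between libraries, and libraries of the same gel were treated as independent except where the gel was a block. In fits by group, the spread of NFs came from gels 4 and 5, which also differ in tumor line, and none came from NFs alone.

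CXCL12 is a chemokine that fibroblasts, endothelium and bone marrow stroma release and that cells follow along a gradient. CXCR4 is the receptor that turns CXCL12 into movement and survival signals through inhibitory G proteins. ACKR3, an atypical receptor, binds CXCL12 with high affinity, recruits arrestins without classical G protein signaling and takes the chemokine up, which lowers its amount outside the cell. CD26, the surface protein by which the NFs were sorted, is a peptidase that trims the amino end of CXCL12. In mammary tumors CXCL12 is best known as a product of carcinoma-associated fibroblasts.

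In the mouse genome (GRCm38), Cxcl12 (ENSMUSG00000061353) lies on the plus strand of chromosome 6 from 117168535 to 117181367, with 4 transcripts in GENCODE M21, 3 of them protein coding. Ackr3 (ENSMUSG00000044337) lies on the plus strand of chromosome 1 from 90203980 to 90216751, with 2 transcripts of at most 3 exons. Cxcr4 (ENSMUSG00000045382) lies on the minus strand of the same chromosome from 128588199 to 128592293, with 2 transcripts of at most 2 exons. The exons of these genes cover 8176, 3348 and 1808 bases when transcripts are merged, and 0% of these bases overlapped exons of another gene in GENCODE M21.

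The 250 bases before each start are shown because the genes differed in where they were on. They are from RefSeq (GRCm38.p6), written 5′ to 3′ on the strand of the gene, at chr6:117168285-117168534 (plus strand) for Cxcl12, chr1:128592300-128592549 (minus strand) for Cxcr4 and chr1:90203730-90203979 (plus strand) for Ackr3. Capitals mark TATAAA (the TATA box) and GGGCGG (the GC box that Sp1 reads), both searched on either strand, so that CCGCCC is a GC box on the other strand.
Cxcl12: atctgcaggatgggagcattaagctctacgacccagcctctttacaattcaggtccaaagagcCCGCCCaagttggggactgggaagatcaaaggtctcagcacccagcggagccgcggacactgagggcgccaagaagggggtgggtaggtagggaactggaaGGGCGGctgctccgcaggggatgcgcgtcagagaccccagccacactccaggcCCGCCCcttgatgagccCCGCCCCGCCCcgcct
Cxcr4: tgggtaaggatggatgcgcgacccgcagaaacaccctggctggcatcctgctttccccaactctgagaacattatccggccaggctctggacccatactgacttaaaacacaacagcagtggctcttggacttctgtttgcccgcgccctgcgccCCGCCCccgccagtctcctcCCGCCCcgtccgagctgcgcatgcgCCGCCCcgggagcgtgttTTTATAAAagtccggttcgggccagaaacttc
Ackr3: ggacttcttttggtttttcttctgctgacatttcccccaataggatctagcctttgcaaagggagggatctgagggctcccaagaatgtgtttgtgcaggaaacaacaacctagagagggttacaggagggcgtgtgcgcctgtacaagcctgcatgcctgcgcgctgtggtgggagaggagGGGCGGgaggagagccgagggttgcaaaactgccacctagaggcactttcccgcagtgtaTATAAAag
The window of Cxcl12 held 5 GC boxes, the nearest 2 of which share a base, and no TATAAA. The window of Cxcr4 held 3 GC boxes and a TATAAA on either strand, overlapping each other, with first bases 32 and 30 bases before the start. The window of Ackr3 held 1 GC box and 1 TATAAA, 8 bases before the start. Of 32851 such windows of all genes, 12.4% held TATAAA and 32.7% held GGGCGG. G and C made up 64.4% of the window of Cxcl12, 61.2% of that of Cxcr4 and 54% of that of Ackr3, against a median of 52.4%. Of the short motifs of hypoxia factors, GCGTG occurred once each in the windows of Cxcr4 and Ackr3 and in 28.2% of all windows, and ACGTG in none of the 3 and in 16.6% of all. CCCNNGGG, the core read by Ebf factors, occurred in none of the 3 and in 11.8% of all. These are matches of letters, not sites shown to be bound.

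The libraries held 14142334 to 18408940 counts, and levels are given as CPM (counts scaled to a common library size). A gene with 0 counts may still have been present at up to 3 counts, which is 0.163 to 0.212 CPM depending on the library. These limits and the 95% Clopper-Pearson intervals below cover counting error only. The labelled cell types carried their own markers: 7 fibroblast markers summed to 22677 to 74623 CPM in NFs and to 38.7 to 177 CPM in tumor cells, and 8 epithelial markers summed to 3909 to 5182 CPM in tumor cells. In NFs the epithelial sum was 0.807 and 1.12 CPM without tumor cells but 115 to 317 CPM after co-culture. In co-cultured NFs the median epithelial marker stood at 1.97% to 5.46% of its level in the tumor cells of the same gel. In bulk RNA, fewer cells that express a gene and less RNA per cell cannot be told apart.

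**Figure D1:**
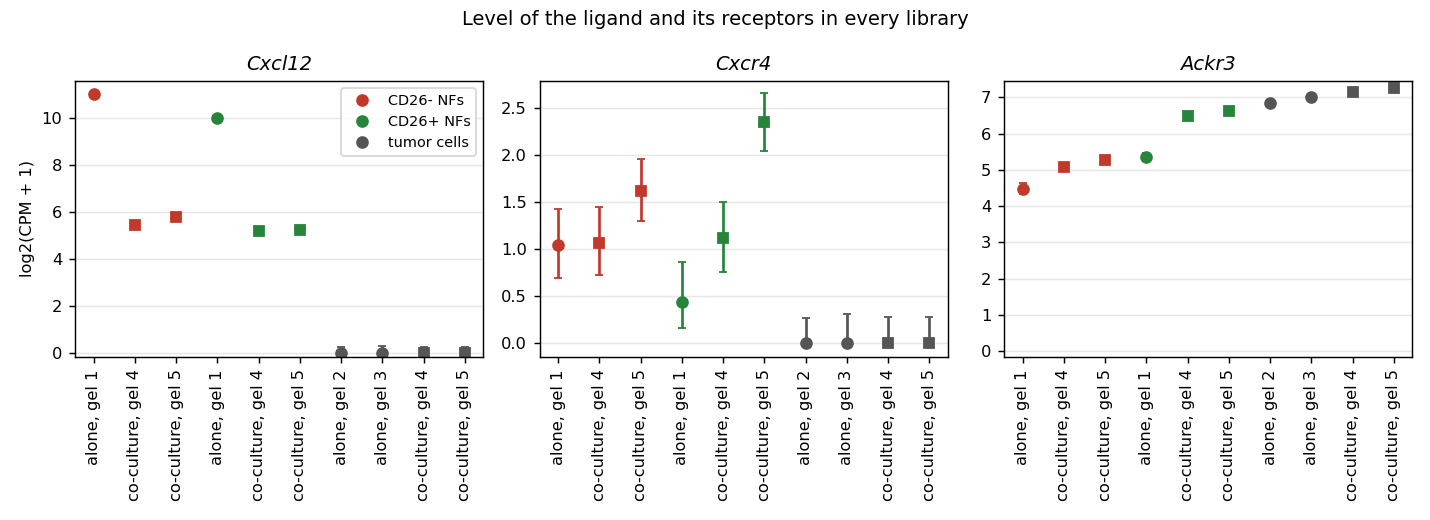
Level of Cxcl12, Cxcr4 and Ackr3 in each of the 10 libraries as log2(CPM + 1), with a separate vertical scale for each gene. Bars are 95% Clopper-Pearson intervals of counting, circles are gels of NFs or tumor cells alone, and squares are co-cultures. Cxcl12 is high in the 2 libraries of NFs alone and at 0 in the 4 tumor libraries, and Ackr3 is highest in tumor cells.

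The ligand was a gene of the NFs, and its level was much lower next to tumor cells. Cxcl12 reached 2037 CPM in CD26- NFs alone (32806 counts) and 1024 CPM in CD26+ NFs alone (14596 counts). In co-culture, CD26- NFs held 42.9 CPM (gel 4) and 53.8 CPM (gel 5), and CD26+ NFs held 35.1 CPM (gel 4) and 36.7 CPM (gel 5). None of the 4 tumor libraries held a count. NFs alone and NFs in co-culture did not overlap, and the share of all genes without overlap was not counted.

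To ask how co-culture related to the 3 genes in NFs, the 6 NF libraries were fitted with culture and subset as terms. Of the 3 genes, 2 passed an adjusted p-value of 0.05, 1 in each direction, where 48.8% of the 15013 genes tested did (25.9% higher and 22.9% lower in co-culture). Cxcl12 was 33.7-fold lower in co-culture (log2 fold change -5.07, 95% interval -5.47 to -4.68, SE 0.178, edgeR's quasi-likelihood test with Benjamini-Hochberg adjustment, adjusted p = 9.67e-08), and only 106 of the 15013 genes had a lower fold change. Within subsets the difference was 40.1-fold in CD26- NFs (adjusted p = 3.62e-09) and 27.8-fold in CD26+ NFs (adjusted p = 1.2e-08), in fits where 30.8% and 34.2% of genes passed. NFs alone are 1 library in each subset and add no spread, so these p-values take it from gels 4 and 5. By gel, Cxcl12 in CD26- NFs was 47.5-fold (gel 4) and 37.9-fold (gel 5) below gel 1, and in CD26+ NFs 29.2-fold and 27.9-fold. The fold did not differ between subsets past the threshold (log2 difference 0.53, 95% interval -0.17 to 1.24, adjusted p = 0.796), nor did that of the other 2 genes below, in a fit where 0.376% of genes passed. Of these 3 subset differences, 0 had an unadjusted p-value under 0.05 and 0 passed under DESeq2.

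Both receptors stood higher or level in co-cultured NFs, on very different amounts. Cxcr4 was low in every NF library, on 5 to 58 counts. It had 17 counts (1.06 CPM) in CD26- NFs alone and 5 counts (0.351 CPM) in CD26+ NFs alone. In co-culture, CD26- NFs had 18 counts (1.09 CPM) in gel 4 and 36 counts (2.07 CPM) in gel 5. CD26+ NFs had 18 counts (1.16 CPM) in gel 4 and 58 counts (4.1 CPM) in gel 5. The highest library was thus CD26+ NFs of gel 5, with an interval of 3.11 to 5.3 CPM that overlapped no other, while CD26- NFs of gels 1 and 4 and CD26+ NFs of gel 4 had nearly the same level. In the fits within a subset given below, NFs alone are 1 library that adds no spread, so p-values and intervals take it from gels 4 and 5. Over both subsets Cxcr4 did not pass the threshold (log2 fold change 1.56, 95% interval -0.06 to 3.17, adjusted p = 0.101), but it did without gel 4 (2.17, adjusted p = 0.0412) and with the subsets, which share each gel, summed per gel (1.54, adjusted p = 0.0101). In CD26+ NFs it was higher in co-culture (2.91, 95% interval 0.87 to 4.96, adjusted p = 0.0304) by 3.29-fold in gel 4 and 11.7-fold in gel 5, against a library of 5 counts. In CD26- NFs it did not pass (0.66, 95% interval -1.02 to 2.34, adjusted p = 0.562), and the difference between subsets did not either (2.25, 95% interval -0.43 to 4.93, adjusted p = 0.749). The call in CD26+ NFs was lost without a filter on low counts (adjusted p = 0.0606), without gel 4 (adjusted p = 0.168) and without gel 5 (adjusted p = 0.368), and in the fit over all 10 libraries (adjusted p = 0.117).

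Cxcr4 is also a gene of leukocytes and endothelium, whose markers were therefore summed. The 7 leukocyte markers summed to 5.59 and 10 CPM in gel 1, against 32.4 to 64.2 CPM for co-cultured NFs. Cd68 made up most of this, with 3.48 and 6.53 CPM in gel 1 and 19.6 to 53.5 CPM after co-culture. Csf1r went from 1.86 and 2.81 CPM to between 7.42 and 13.5 CPM, and Itgam from 0.124 and 0 CPM to between 0.849 and 1.61 CPM. Ptprc, the gene of the pan-leukocyte protein CD45, stayed at or below 0.127 CPM throughout. The same markers summed to 48.3 to 302 CPM in tumor cells, which held no Cxcr4 count. The 5 endothelial markers summed to 4.6 and 9.76 CPM in gel 1, against 8.06 to 24.4 CPM for co-cultured NFs, highest in CD26+ NFs of gel 4. Pecam1 was 0.31 and 1.26 CPM alone and 5.93 to 9.76 CPM in co-culture, Cdh5 0.186 and 0.211 against 1.04 to 4.69 CPM, and Kdr 0.621 and 3.44 against 1.04 to 8.35 CPM. Tek went the other way, from 3.23 and 4.84 CPM to between 0.0575 and 1.98 CPM, and Emcn had 0.248 and 0 CPM alone and 0 counts in co-culture. The part of such cells in the Cxcr4 values was not tested.

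Ackr3 was well counted in every library. It had 21.4 CPM (345 counts) in CD26- NFs alone and 40.1 CPM (572 counts) in CD26+ NFs alone. In co-culture (gels 4 and 5), CD26- NFs held 32.8 and 38 CPM and CD26+ NFs 89.3 and 98.1 CPM. Each subset was higher in both co-culture gels than in gel 1, while the range of CD26- NFs in co-culture lay below CD26+ NFs alone. As for Cxcr4, the p-values within a subset given below take their spread from gels 4 and 5, since NFs alone are 1 library. Over both subsets Ackr3 was 2.03-fold higher in co-culture (log2 fold change 1.02, SE 0.164, adjusted p = 0.000767). It was higher in CD26+ NFs (2.4-fold, adjusted p = 0.000828) and in CD26- NFs (1.73-fold, adjusted p = 0.0175), with no difference between subsets past the threshold (0.47, 95% interval -0.20 to 1.14, adjusted p = 0.831). The call in CD26- NFs was lost without either co-culture gel (adjusted p = 0.0795 without gel 4 and 0.141 without gel 5), and that in CD26+ NFs without gel 5 (adjusted p = 0.0545).

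Tumor cells expressed more Ackr3 than NFs, and epithelial markers were counted in co-cultured NFs. The part of tumor RNA in these Ackr3 values was not tested. The epithelial marker with the highest share was Krt19 in each co-cultured NF library (9.19% to 17.7%). When Ackr3 of tumor cells was taken off at that share, CD26+ NFs kept 71.1 CPM in gel 4 and 71.3 CPM in gel 5, above the 40.1 CPM of gel 1. CD26- NFs kept 18.8 CPM in gel 4 and 24.1 CPM in gel 5, on either side of the 21.4 CPM of gel 1. At the median share, 2.81 to 8.26 CPM of Ackr3 would come from tumor RNA. Over the 4 co-cultured NF libraries, the mean log2 CPM of Ackr3 lay 0.97 above NFs alone as measured and 0.41 above at the highest share.

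**Figure D2:**
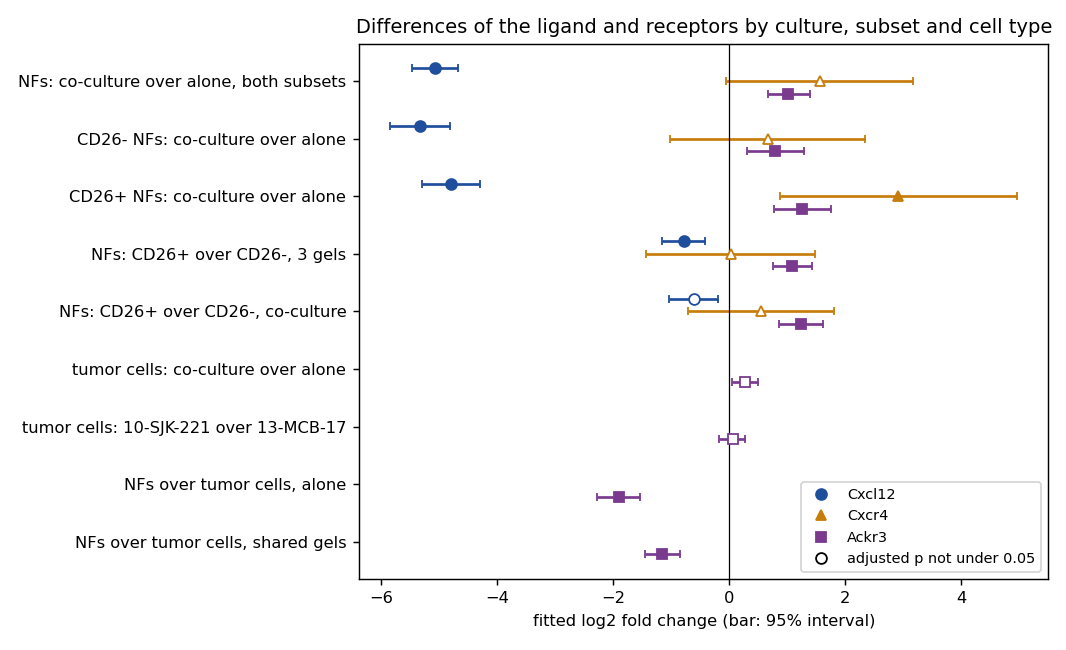
Fitted log2 fold changes of Cxcl12, Cxcr4 and Ackr3 with 95% intervals, for comparisons by culture, subset, tumor line and cell type. Filled symbols passed an adjusted p-value of 0.05, and Cxcl12 and Cxcr4 are left out where tumor libraries at 0 counts enter. Cxcl12 lies near -5 for culture, and Ackr3 lies right of 0 for culture and subset in NFs and left of 0 for NFs over tumor cells.

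CD26+ NFs carried less of the ligand and more of the scavenging receptor than CD26- NFs of the same gel. Cxcl12 in CD26+ NFs was 1.99-fold lower in gel 1, 1.22-fold lower in gel 4 and 1.46-fold lower in gel 5. Ackr3 was 1.87-fold higher in gel 1, 2.72-fold higher in gel 4 and 2.58-fold higher in gel 5. Of the 3 genes, these 2 passed the threshold over the 3 gels, where 7.53% of genes did (3.93% higher and 3.6% lower in CD26+ NFs). Ackr3 was 2.12-fold higher in CD26+ NFs (log2 fold change 1.09, 95% interval 0.75 to 1.42, SE 0.149, adjusted p = 0.00548), and Cxcl12 1.72-fold lower (-0.78, 95% interval -1.16 to -0.41, SE 0.167, adjusted p = 0.0268). Without gel 5 neither passed (adjusted p = 0.12 for Ackr3 and 0.257 for Cxcl12), and Cxcl12 did not pass without gel 1 (adjusted p = 0.0753) or in the fit over all 10 libraries (adjusted p = 0.0766). Cxcr4 had no direction: CD26+ over CD26- was 0.332-fold in gel 1, 1.06-fold in gel 4 and 1.98-fold in gel 5 (log2 fold change 0.03, 95% interval -1.43 to 1.48, adjusted p = 0.985).

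Next to tumor cells, the subset difference of Ackr3 was the one that passed, in a fit where 6.01% of genes did. It was 2.34-fold higher in co-cultured CD26+ NFs than in co-cultured CD26- NFs (log2 fold change 1.23, SE 0.177, adjusted p = 0.00112). The epithelial marker sum was also higher in CD26+ NFs (172 CPM in gel 4 and 317 CPM in gel 5) than in CD26- NFs (115 and 139 CPM). The part of tumor RNA in this difference of Ackr3 was not tested. Cxcl12 was lower in co-cultured CD26+ NFs in both gels and missed the threshold (-0.61, 95% interval -1.03 to -0.19, adjusted p = 0.0885). With the gel as a block, Cxcl12 passed (-0.58, adjusted p = 0.00687). That fit had 1 residual degree of freedom, and 2407 genes passed in it against 975 without the block. Cxcr4 did not pass (0.54, 95% interval -0.71 to 1.80, adjusted p = 0.666). Leaving out gel 4 or gel 5 left 1 library per subset and no call for Ackr3 (adjusted p = 0.553 and 0.975).

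Tumor cells lacked the ligand and Cxcr4 at this depth and carried the most Ackr3. Grown alone, the lines held 113 CPM (13-MCB-17) and 127 CPM (10-SJK-221) of Ackr3, which were 142 and 151 CPM when NFs were present. Both lines moved up in co-culture, by 1.26-fold and 1.19-fold. This did not pass the threshold (log2 fold change 0.27, 95% interval 0.04 to 0.49, adjusted p = 0.0875 by edgeR and 0.425 by DESeq2), where 22.3% of 13197 genes did (10.8% higher and 11.5% lower). Its unadjusted p-value in edgeR was under 0.05. The lines did not differ in Ackr3 past the threshold (10-SJK-221 over 13-MCB-17, 0.06, 95% interval -0.17 to 0.28, adjusted p = 0.752), where 14.5% of genes did.

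Set against each other, NFs and tumor cells differed in all 3 genes, among 55.5% of 17048 genes that differed when each was grown alone and 51.8% in shared gels. Cxcl12 was at least 8652-fold higher in NFs alone than in tumor cells alone and at least 247-fold higher in shared gels, both against the mean floor of 3 counts per tumor library (adjusted p = 8.77e-07 and 3.68e-06). Cxcr4 had 17 and 5 counts in NFs alone against 0 in tumor cells alone (adjusted p = 0.0238), too few for a bound on the fold, and its mean over NFs of shared gels was at least 12.4-fold above that floor (adjusted p = 0.0039). Its calls were lost without gel 2 or 3 for cells alone (adjusted p = 0.0617 and 0.0542) and without gel 4 or 5 for shared gels (adjusted p = 0.0504 and 0.0911). Ackr3 was 3.73-fold lower in NFs than in tumor cells alone (log2 fold change -1.90, SE 0.161, adjusted p = 2.41e-05) and 2.22-fold lower in shared gels (-1.15, SE 0.13, adjusted p = 0.000143). The narrower gap in shared gels was itself tested for Ackr3 and passed (log2 difference 0.75, adjusted p = 0.0369), where 20.2% of genes did, and it did not hold when any 1 of gels 2 to 5 was left out (adjusted p = 0.0644 to 0.283). On the mean of log2 CPM, NFs were below tumor cells by a log2 difference of -2.03 alone and -1.35 in shared gels, and with tumor RNA taken off at the highest epithelial share by -1.91 in shared gels, values that carry no test.

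In order of level, Ackr3 ran from CD26- NFs alone (21.4 CPM, 1 library) through co-cultured CD26- NFs (35.4 ± 3.68 CPM, SD, n = 2), CD26+ NFs alone (40.1 CPM, 1 library), co-cultured CD26+ NFs (93.7 ± 6.21 CPM, SD, n = 2) and tumor cells alone (120 ± 10.4 CPM, SD, n = 2) to co-cultured tumor cells (147 ± 6.22 CPM, SD, n = 2). Co-cultured CD26- NFs and CD26+ NFs alone were the closest neighbours: the interval of CD26+ NFs alone was 36.9 to 43.6 CPM, which overlapped that of gel 5 (35.1 to 41 CPM) and not that of gel 4 (30.1 to 35.7 CPM), and this pair was not tested. For Cxcl12 the order was CD26- NFs alone, CD26+ NFs alone, co-cultured CD26- NFs (48.3 ± 7.67 CPM, SD, n = 2), co-cultured CD26+ NFs (35.9 ± 1.1 CPM, SD, n = 2) and tumor cells. For Cxcr4, co-cultured CD26+ NFs (2.63 ± 2.08 CPM, SD, n = 2), co-cultured CD26- NFs (1.58 ± 0.694 CPM, SD, n = 2) and CD26- NFs alone lay within their spread.

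To compare the ligand with its scavenging receptor, levels were divided by exon length. In NFs alone, Cxcl12 was above Ackr3 per kilobase of exon, by 38.9-fold in CD26- NFs (249 against 6.4 CPM per kb) and 10.4-fold in CD26+ NFs (125 against 12 CPM per kb). In co-culture the order per kb turned in all 4 NF libraries. Ackr3 was above Cxcl12 per kb by 1.87-fold (gel 4) and 1.73-fold (gel 5) in CD26- NFs, and by 6.21-fold and 6.53-fold in CD26+ NFs. With tumor RNA taken off Ackr3 at the highest epithelial share, the ratios were 1.07 and 1.09 in CD26- NFs, close to equal levels, and 4.94 and 4.74 in CD26+ NFs. Ackr3 also exceeded Cxcr4 per kb in every NF library, by 9.9-fold to 61.8-fold. Without division by length, Cxcl12 in CPM stayed above Ackr3 in co-cultured CD26- NFs, by 1.31-fold (gel 4) and 1.42-fold (gel 5). In co-cultured CD26+ NFs it was 0.394 and 0.374 of Ackr3. The order in co-cultured CD26- NFs thus depends on the exon lengths used. Merged exons take no account of which transcript was made, and a transcript's level is not the amount of protein.

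**Figure D3:**
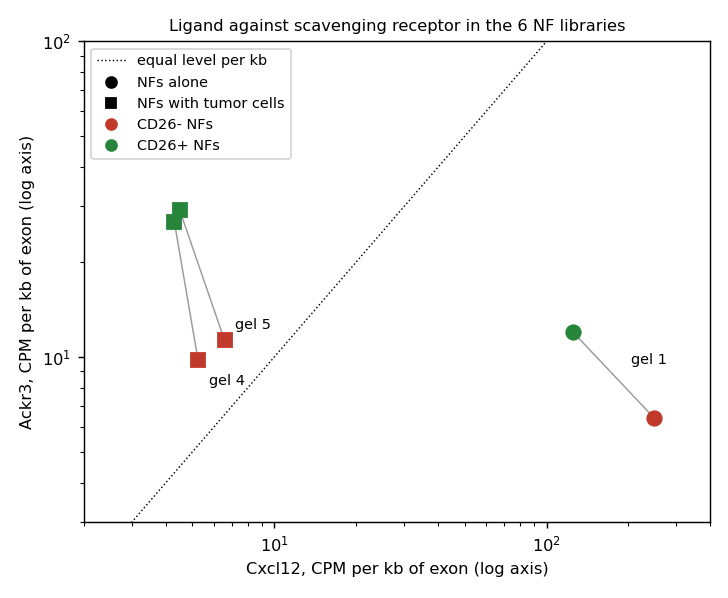
Level of Ackr3 against Cxcl12 in the 6 NF libraries, both in CPM per kilobase of exon on log axes, with grey lines joining the 2 subsets of a gel. The dotted line marks equal levels, and the libraries of gel 1 lie below it and those of gels 4 and 5 above it. In each gel the CD26+ library lies up and to the left of the CD26- library.

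Around the 3 genes, 72 genes of the CXCL12 system were read in 7 lists, by what their products do. The lists were chosen with earlier results of these data known, so that their counts and medians are a description. Of other ligands of these receptors, 3 of 4 were tested in NFs. Mif, a cytokine that also binds CXCR4, rose in co-culture from 51.4 and 76.1 CPM to between 161 and 306 CPM (log2 fold change 2.03, adjusted p = 2.18e-05), while tumor cells held 257 to 373 CPM. Adm, the gene of adrenomedullin, a peptide that ACKR3 also takes up, rose from 52.3 and 60.1 CPM to between 81.1 and 164 CPM (1.17, adjusted p = 0.00301) and stayed at or below 1.97 CPM in tumor cells. Hmgb1, whose product forms a complex with CXCL12, fell (-0.50, adjusted p = 0.0101). By culture 25.9% of all genes tested in NFs were higher and 22.9% lower. In tumor cells none of the 3 tested ligands passed, where 22.3% of all genes did.

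Of 9 further chemokine receptors and binding partners, 3 were tested in NFs. By culture 1 of 3 passed, no larger a share than the 48.8% of all genes. Ackr4, another scavenging receptor, fell from 8.13 and 3.23 CPM alone to between 0.575 and 2.83 CPM (-1.61, adjusted p = 0.0334). Ackr1 was higher in CD26+ than in CD26- NFs, with 1.26, 1.09 and 1.2 CPM against 0.31, 0.242 and 0.288 CPM in gels 1, 4 and 5 (1.90, adjusted p = 0.0485), the 1 of 3 that passed by subset, where 7.53% of all genes did. It was named after its values were seen. In tumor cells 2 of 3 tested genes passed, where 22.3% of all genes did. Cxcr3, a receptor for other chemokines, fell in co-culture from 4.45 and 4.64 CPM to 1.58 and 2.85 CPM (-1.10, adjusted p = 0.0388). Cd74, which binds MIF, rose there from 0.435 and 1.08 CPM to 2.26 and 3.88 CPM (2.03, adjusted p = 0.00703).

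Proteases that cut CXCL12 were the list with the highest median in NFs by culture, 2.86 against 0.02 over all genes, with 4 of 6 tested members higher and 1 lower, where 25.9% of all genes were higher and 22.9% lower. Mmp9, a gelatinase, rose from 12.9 and 18.6 CPM in NFs alone to between 3880 and 6332 CPM (8.36, adjusted p = 5.47e-08). Mmp3, stromelysin, rose from 1047 and 780 CPM to between 8730 and 13024 CPM (3.49, adjusted p = 1.04e-05), and Cpm, a carboxypeptidase of the cell surface, from 0.186 and 0.561 CPM to between 10.5 and 18.5 CPM (5.28, adjusted p = 3.08e-06). Mmp14 fell (-0.90, adjusted p = 0.00295), and Mmp2, at 2308 to 4492 CPM in NFs, did not pass. Dpp4, the gene of CD26, stayed at or below 0.771 CPM throughout and was too low to be tested by culture or subset. Between NFs and tumor cells of shared gels it did not pass (adjusted p = 0.305). By subset 0 of the 6 tested proteases passed, where 7.53% of all genes did. In tumor cells 4 of 6 were higher in co-culture, where 10.8% of all genes were, among them Mmp9 (1.36, adjusted p = 0.00015) and Mmp13 (1.20, adjusted p = 0.00613). Mmp2 was too, from 3.97 and 2.74 CPM to 42.3 and 16.4 CPM (3.02, adjusted p = 0.000114), in libraries whose fibroblast marker sum was 177 and 106 CPM against 71.7 and 38.7 CPM alone, and the part of NF RNA in this was not tested.

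Heparan sulfate chains hold CXCL12 on cells and matrix, and of their 14 genes 4 were higher and 5 lower in NFs by culture, with a median of -0.03, beside 25.9% and 22.9% of all genes. The core proteins Gpc1 (1.60, adjusted p = 6.8e-05), Sdc1 (1.65, adjusted p = 0.000359) and Sdc3 (1.11, adjusted p = 0.00197) rose. Sulf2, an enzyme that takes sulfate off the chains, fell from 244 and 476 CPM to between 12.7 and 56.5 CPM (-3.62, adjusted p = 1.44e-06), while Sulf1 was 158 to 282 CPM in NFs and did not pass. Ndst2 and Hs2st1, which put sulfate on the chains, fell slightly (-0.48 and -0.49, adjusted p = 0.0146 and 0.0141). By subset 2 of 14 passed, where 7.53% of all genes did: Sulf2 was higher (1.19, adjusted p = 0.0118) and Sdc2 lower (-0.64, adjusted p = 0.0362) in CD26+ NFs. In tumor cells 4 of 12 tested genes were higher in co-culture and 0 lower (10.8% and 11.5% of all genes), among them Ext1 (0.85, adjusted p = 0.00101), which builds the chains, Hs6st1 (1.30, adjusted p = 0.00267), which sulfates them, and Sdc3 (1.83, adjusted p = 0.00194). Sulf1 and Sulf2 were genes of the NFs, at most 1.43 CPM in tumor cells.

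Of 22 genes of receptor signaling and turnover, 20 were tested in NFs by culture, where 5 were higher and 3 lower with a median of 0.08, no larger a share than the 25.9% and 22.9% of all genes. Arrb1, an arrestin of the kind that ACKR3 recruits, rose from 23.2 and 22.8 CPM to between 72.1 and 103 CPM (1.95, adjusted p = 3.63e-05), and the other arrestin, Arrb2, was 5.34 to 9.48 CPM in NFs and did not pass. Grk2, a kinase that switches receptors off, rose (0.69, adjusted p = 0.00174), as did Rgs16, which ends G protein signals (1.74, adjusted p = 1.28e-05), while its relative Rgs4 fell (-1.60, adjusted p = 2.5e-05). Jak2 and Stat3, a kinase and the factor it can switch on, fell in NFs (-0.72 and -0.68, adjusted p = 0.00951 and 0.00214). Both rose in tumor cells (1.24 and 0.56, adjusted p = 0.000232 and 0.00602). There 4 of 16 tested genes were higher and 1 lower, where 10.8% and 11.5% of all genes were. Rgs2 also rose (1.03, adjusted p = 0.00189) and Grk6 fell (-0.84, adjusted p = 0.00145). By subset 4 of 20 passed (7.53% of all genes). Grk3 was higher in CD26+ NFs (1.76, adjusted p = 0.0411), and Rgs16 (-0.60, adjusted p = 0.0246), Grk5 (-0.61, adjusted p = 0.0362) and Itch (-0.55, adjusted p = 0.0442), a ubiquitin ligase that sends CXCR4 to breakdown, were lower. In shared gels, Gnai1, an inhibitory G protein, had 11.3 to 13.4 CPM in NFs and 0 counts in tumor cells, whereas Gnai2 was higher in tumor cells (NFs over tumor cells -0.56, adjusted p = 0.00752).

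The next list held 6 transcription factors known to act on these genes or in hypoxia, and Vhl, which marks hypoxia factors for breakdown and is not itself a transcription factor. Of these 7 genes, all tested, 5 fell and 2 rose in co-cultured NFs, with a median of -1.37 against 0.02, where 22.9% of all genes fell and 25.9% rose. Ebf3 and Foxc1, factors of the CXCL12-rich stroma of bone marrow, fell from 28.6 and 38.4 CPM to between 5.8 and 12.5 CPM (-1.94, adjusted p = 0.000198) and from 17 and 28.3 CPM to between 5.81 and 10.3 CPM (-1.37, adjusted p = 0.000814). Hic1, a repressor known to act on Ackr3, fell from 64.5 and 68.9 CPM to between 15.3 and 22.2 CPM (-1.73, adjusted p = 9.7e-06). Epas1, a hypoxia factor, rose slightly (0.44, adjusted p = 0.0477) and was higher in CD26+ NFs (0.90, adjusted p = 0.0117), and Vhl rose as well (0.39, adjusted p = 0.037). Hif1a, the other hypoxia factor of the list, fell in co-cultured NFs (-0.87, adjusted p = 0.0021). In tumor cells Epas1 rose (1.14, adjusted p = 0.000826), the 1 of 6 tested that passed, where 22.3% of all genes did. In shared gels Ebf3 had 0 counts in tumor cells and Ebf1 at most 0.627 CPM, against 37.5 to 112 CPM of Ebf1 in NFs.

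Of 7 factors that CXCL12-producing stroma is known to make, 4 fell and 0 rose in co-cultured NFs, with a median of -0.50, beside the same shares of all genes. Angpt1, a vessel-stabilizing ligand, fell from 60.9 and 42.5 CPM to between 2.54 and 3.68 CPM (-3.96, adjusted p = 8.76e-07), and Vcam1, an adhesion molecule, from 429 and 425 CPM to between 42.7 and 89.3 CPM (-2.65, adjusted p = 1.16e-05). Pdgfra fell slightly (-0.50, adjusted p = 0.0224), and Pdgfrb, 1 of 7 that passed by subset (7.53% of all genes), was lower in CD26+ NFs (-0.85, adjusted p = 0.0436). In tumor cells 4 were higher and 1 lower in co-culture, where 10.8% and 11.5% of all genes were. Of the 4, Pdgfrb is also one of the fibroblast markers and had 0 counts alone against 21 and 17 counts in co-culture. The fibroblast marker sum of these libraries was 71.7 and 38.7 CPM alone and 177 and 106 CPM in co-culture, and the part of NF RNA in these values was not tested. Vcam1 rose from 0.869 and 4.07 CPM to 15.3 and 17.1 CPM (2.85, adjusted p = 0.00167), Angpt1 from 1.2 and 0.254 CPM to 13.1 and 1.37 CPM (3.19, adjusted p = 0.00074) and Lepr from 2.93 and 5.15 CPM to 6.05 and 11.1 CPM (1.05, adjusted p = 0.0108), while Kitl fell (-0.79, adjusted p = 0.00123). Angpt1 and Lepr in co-cultured tumor cells were above every co-cultured NF library in at least 1 gel, and Vcam1 was below all of them.

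**Figure D4:**
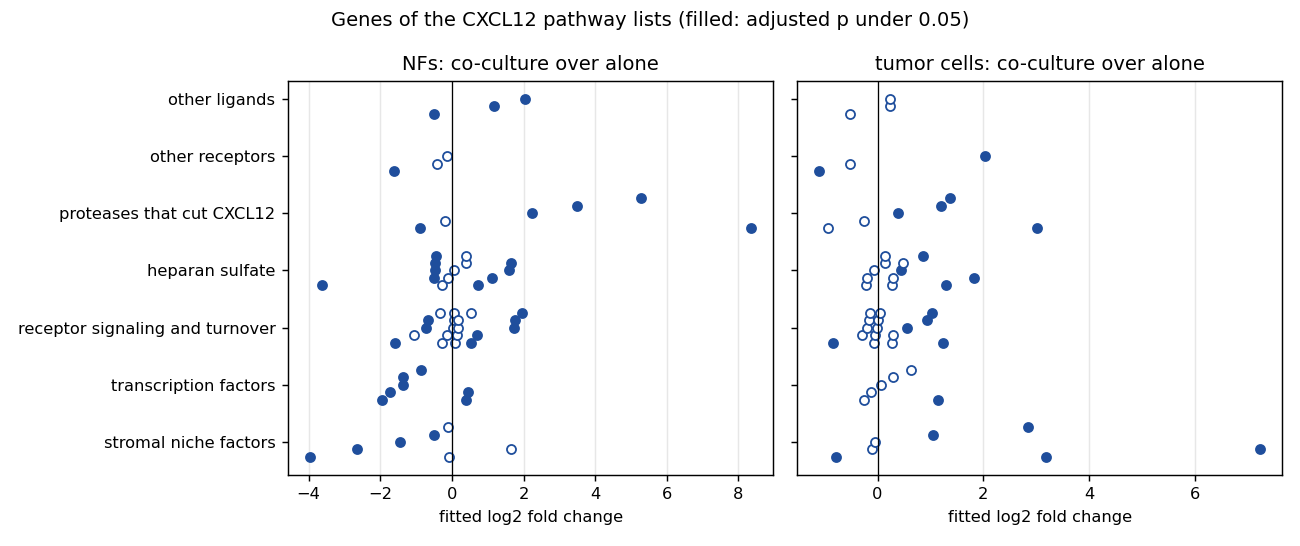
Fitted log2 fold changes of the tested genes of the 7 CXCL12 pathway lists in NFs (left) and tumor cells (right), co-culture over alone. Each point is a gene, offset vertically for legibility and filled where the adjusted p-value was under 0.05. In NFs the proteases reach furthest to the right, and 5 of the 7 genes of the list of transcription factors, which includes Vhl, lie left of 0.

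The genes whose levels followed each gene most closely over the 10 libraries were found by Pearson's r of log2(CPM + 1), among 10832 (10833 for Cxcr4) genes with a mean of at least 5 CPM. The libraries fall into NFs alone, co-cultured NFs and tumor cells, so that r mostly reflects these groups and is given as a description. Since these genes were picked for their likeness in these libraries, their levels are given with no test. For Cxcl12 they were Abi3bp, Slc18b1, Spats2l, Sfrp1 and Gulp1 (r = 0.997 to 0.998). Sfrp1, a secreted antagonist of Wnt ligands, went from 5070 and 2315 CPM in NFs alone to between 30.4 and 71.6 CPM in co-culture. Abi3bp, a matrix protein, went from 2999 and 903 CPM to between 36.2 and 51 CPM. Both stayed at or below 0.283 CPM in tumor cells.

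For Cxcr4 the closest genes were Gngt2, Rasgrf1, Lingo1, Kcnk10 and Gm13889 (r = 0.914 to 0.941), each highest in co-cultured CD26+ NFs of gel 5 as Cxcr4 was. Kcnk10, a potassium channel, had 25.5 CPM there, against 1.49 and 0.772 CPM in NFs alone and 0 counts in tumor cells. For Ackr3 they were Tex30, Gsk3a, Lcn2, Tspan7 and Fdx1 (r = 0.967 to 0.978). Lcn2, the iron-carrying protein lipocalin 2, had 0.497 and 7.16 CPM in CD26- and CD26+ NFs alone. After co-culture, CD26- NFs held 21.2 and 16.5 CPM, CD26+ NFs 173 and 140 CPM, and tumor cells held 436 to 661 CPM throughout. At the lowest to the highest share of an epithelial marker, the Lcn2 of tumor cells would amount to 11 to 64.7 CPM (gel 4) and 3.63 to 40.3 CPM (gel 5) in CD26- NFs, and to 13.8 to 84.3 CPM and 12.3 to 77.7 CPM in CD26+ NFs. The part of tumor RNA in Lcn2 was not tested. Tspan7, a membrane protein of the tetraspanin family, had 3.23 CPM in CD26- and 16.9 CPM in CD26+ NFs of the gel without tumor cells. Exons of Gsk3a, Tex30, Gm13889, Gngt2 and Tor1aip1 overlap other genes over 28.3%, 17.5%, 20.8%, 12.5% and 12.9% of their length, as do those of Gpc1, Angpt1 and Rgs16 above over 18.9%, 14.2% and 10.1%, and their counts are uncertain because use of strand in counting was not given in the sources used here.

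**Figure D5:**
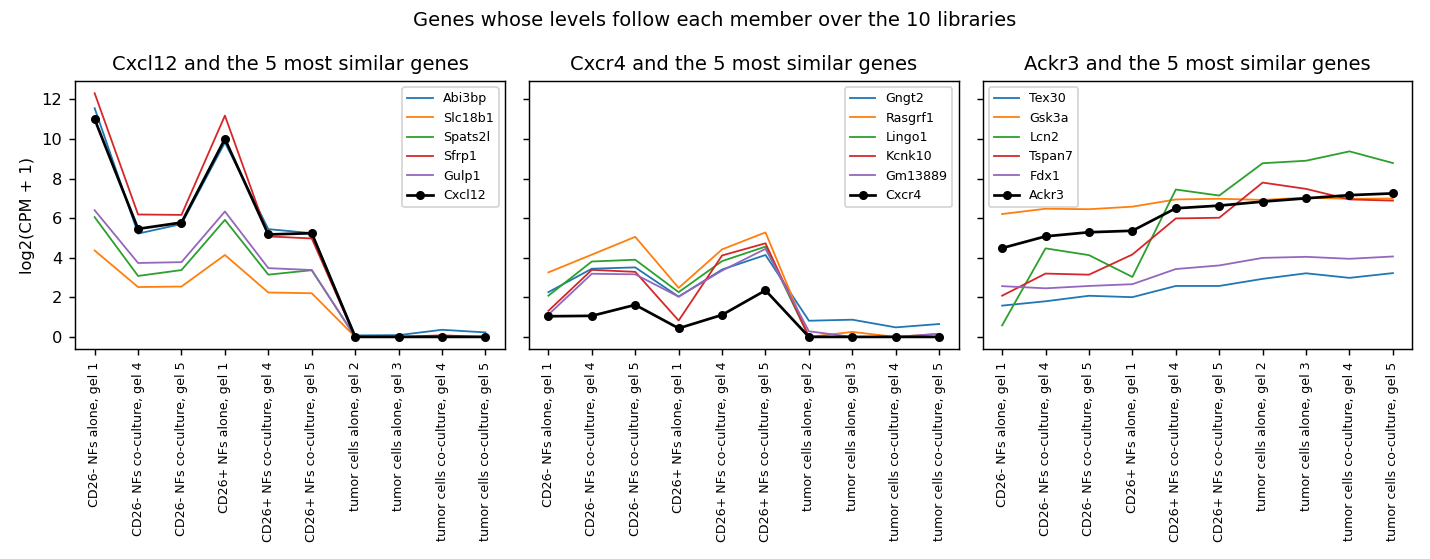
Level as log2(CPM + 1) in the 10 libraries of Cxcl12, Cxcr4 and Ackr3 (black) and of the 5 genes with the highest Pearson's r to each (colored lines). Lines join libraries in order of group only to show the shape, which is high in NFs alone for Cxcl12, highest in CD26+ NFs of gel 5 for Cxcr4 and highest in tumor cells for Ackr3.

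Among the 6 NF libraries alone, Cxcl12 was followed most closely by Fam172a, Zfp36l2, Pcyox1, Tor1aip1 and Sfxn2 (r = 0.998 to 0.999) and most inversely by Rnf145, Gpr35 and Plekhn1 (r = -0.999). Gpr35, a receptor coupled to inhibitory G proteins, went from 2.42 and 4.77 CPM in NFs alone to between 45.9 and 62.1 CPM in co-culture. Zfp36l2, an RNA-binding protein, went from 180 and 138 CPM to between 43.3 and 53 CPM. With 1 gel of NFs alone, such values separate gel 1 from the others more than they order libraries within a condition.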

How the data were processed

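RNA from 10 libraries of sorted mouse NFs and tumor cells was sequenced. The authors deposited 1 table of raw counts of reads by gene, not normalized. Per the labels, libraries were stranded mRNA libraries, and the submitters' processing notes name HISAT2 2.2.1 and GRCm38. Which program counted reads, with what strand setting and annotation, is not given in the sources used here. The 1 table line that names no gene was empty (0 counts) and was dropped.

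In R 4.3.3, counts entered the quasi-likelihood test of edgeR 4.0.16 after TMM scaling and filterByExpr, with Benjamini-Hochberg adjustment over all genes tested, at a threshold of 0.05. NF comparisons over both subsets or over 3 gels fitted terms for culture and subset to the 6 NF libraries, and those within a condition used 4 groups. Tumor comparisons used line and culture terms, and NFs were set against tumor cells in 6 groups of all libraries. The fits were tested on simulated data. Libraries of a gel share that gel, so the gel was tried as a block. Differences between gels 5 and 4 correlated between co-cultured cell types at r = 0.225, 0.225 and 0.099 over 9991 genes.

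Alternatives were RLE scaling, other filters, DESeq2 1.42.0, all libraries in 1 fit, summing of subsets and leaving out each gel. Taking tumor RNA off Ackr3 at the highest epithelial share was added after seeing the data. The 3 genes and the lists were chosen with earlier results of these data known. Genes named besides them were, per list and comparison, up to 3 in each direction with the lowest adjusted p-value and a mean of at least 1 CPM, and the 5 genes most like each of the 3. Not every gene the rule gives is described. Dpp4, Ackr1, Mmp2, Sulf1, Arrb2 and Hif1a in NFs, and Pdgfrb in tumor cells were named outside it, after their values were seen. Exon models came from GENCODE M21.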

Additional observations from a re-analysis of the deposited data

Results flagged for a closer look

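The response of Ackr3 to co-culture differed between cell types. The log2 fold change of co-culture over alone was 0.75 higher in NFs than in tumor cells (95% interval 0.28 to 1.23, SE 0.207, edgeR's quasi-likelihood test with Benjamini-Hochberg adjustment, adjusted p = 0.0369), in a fit where 20.2% of 17048 genes passed. As measured, NFs were higher in co-culture in 4 of 4 libraries and tumor cells in 2 of 2. The call was lost without a filter on low counts (adjusted p = 0.0603) and when any of gels 2, 3, 4 or 5 was left out (adjusted p = 0.0644 to 0.283). The part of tumor RNA in this difference was not tested. On the mean of log2 CPM the difference was 0.68 as measured and 0.12 with tumor RNA taken off Ackr3 at the highest epithelial share. At that share 3 of 4 NF libraries were above gel 1, and CD26- NFs of gel 4 were below it (18.8 against 21.4 CPM). The marker with that share was Krt19 (9.19% to 17.7% of its tumor level), whereas the median epithelial marker stood at 1.97% to 5.46%. At the median share, 2.81 to 8.26 CPM of Ackr3 would be taken off. These values carry no test.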

How the results depend on the processing

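For the 3 genes, 225 values under alternatives were computed over 27 results: 193 kept the direction and the side of the threshold, 22 lost a call, 4 gained one and 6 turned direction, all 6 of them Cxcr4 between subsets. In the fit over all 10 libraries in 6 groups, Cxcl12 by subset over 3 gels was -0.77 (adjusted p = 0.0766) and Cxcr4 -0.19. Under DESeq2, Cxcr4 by subset over 3 gels was -0.07 and Cxcl12 by subset in co-culture -0.61 (adjusted p = 0.0396). With the gel as a block these 2 were -0.09 and -0.58 (adjusted p = 0.00687, on 1 residual degree of freedom), and the block changed no other call of the 3 genes. Cxcr4 by culture with subsets summed per gel was 1.54 (adjusted p = 0.0101, on 1 residual degree of freedom). Cxcr4 by culture in CD26+ NFs was 2.88 with no filter and 2.91 in 6 groups, and the Ackr3 difference between cell types was 0.73 with no filter. The causes were not tested.

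Leaving out each gel gave ranges of -0.92 to -0.60 (Cxcl12), -0.76 to 0.55 (Cxcr4, -0.11 without gel 4) and 1.00 to 1.24 (Ackr3) by subset over 3 gels, and -0.72 to -0.44, -0.07 to 0.81 and 1.20 to 1.29 by subset in co-culture. By culture, ranges were 0.78 to 2.17 for Cxcr4 over both subsets (adjusted p = 0.0412 without gel 4), 0.61 to 0.94 for Ackr3 in CD26- NFs, 1.69 to 3.58 for Cxcr4 and 1.14 to 1.35 for Ackr3 in CD26+ NFs, and 0.64 to 0.85 for the Ackr3 difference between cell types. For Cxcr4 of NFs against tumor cells, adjusted p ran from 0.0415 to 0.0617 alone and from 0.00179 to 0.0911 in shared gels. Fits within a culture or a subset that leave out a gel take their spread from other groups and assume that the lone NF library varies like them.

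Counts of genes passing also moved: by culture from 4997 to 418 and 494 in CD26- NFs and from 5556 to 413 and 504 in CD26+ NFs without gels 4 and 5, by NFs against tumor cells in shared gels from 8839 to 3018 and 2614, by tumor line from 1910 to between 401 and 526 with a gel left out, to 945 under DESeq2, 1065 with all 10 libraries and 2917 with no filter, by subset over 3 gels from 1130 to 17 without gel 5 and 268 in 6 groups of all 10 libraries, by subset in co-culture from 975 to 83 in 6 groups, to 0 without gel 4 or 5, to 603 with no filter and to 2407 with the gel as a block, by the subset and culture interaction from 61 to 395 with the block, to 0 without gel 4 or 5 and in 6 groups, to 18 with no filter, to 38 with at least 1 CPM in 2 libraries and to 98 under DESeq2, by tumor culture from 2942 to 0 without the line term, to between 406 and 1014 with a gel left out, to 1568 under DESeq2 and to 1817 with all 10 libraries, and by the cell type and culture interaction from 3439 to 0 without gel 4 or 5. On TMM effective library sizes, Cxcl12 in CD26- NFs alone was 2220 rather than 2040 CPM, and mean Ackr3 was 40.4 rather than 35.4 CPM in co-cultured CD26- NFs and 134 rather than 147 CPM in co-cultured tumor cells. Depth limits Cxcr4, with at most 58 counts in a library.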
